A study of Mus musculus with 8 samples.

Results

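Imprinted genes are transcribed mainly from the copy inherited from 1 parent, and most of them lie in clusters that share an imprinting control region, a stretch of DNA methylated in the egg or in the sperm but not in both. Many act in fetal growth: genes read from the paternal copy, such as Igf2, often promote it, and genes read from the maternal copy, such as Phlda2, often restrain it. Some are imprinted only in certain tissues such as placenta or brain, and the usual parental copy named here is general knowledge of the mouse, since these libraries do not tell the copies apart.

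The genes described are 37 imprinted genes given by symbol, each present as 1 of the 24487 records (23997 symbols) of the tables. They fall into 8 clusters with 29 genes and 8 genes taken alone, on 9 chromosomes, with 16 genes on chromosome 7, and 6 of them make noncoding RNA. The 8 libraries came from embryonic lung of C57BL/6 mice. Translating ribosome affinity purification (TRAP) pulls down ribosomes of labelled cells with the mRNA on them. Here the labelling was induced with tamoxifen and the pulldown was through ribosomal protein L10. The wildtype groups were TRAP and whole lung homogenate at embryonic day 14 (E14), with 1 library each, the same pair at E17, again with 1 library each, and E16 TRAP with 2 libraries. The Sox9-mutant group was TRAP at E16 with 2 libraries. Sox9 encodes a transcription factor made at the tips of the branching lung epithelium. The sources used here do not name the Cre driver, the altered part of Sox9 or the number of embryos pooled, nor whether replicates came from separate litters, so p-values measure the spread between these libraries only. The E16 titles also carry E13, without explanation, and the series' design calls the E14 reference a supernatant where its label says whole lung homogenate.

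Values are FPKM, fragments scaled by transcript length and library size. Totals of 9783768 to 21500523 fragments per library were inferred from the deposited bounds. They are rough, since the bounds could be read as counting error for only 9014 of 12165 records and the totals sum every record. Sox9 itself stood at 35.9 and 36.4 FPKM in the wild-type E16 libraries and at 12.8 and 11.03 FPKM in the mutant ones. All 12 epithelial markers tested were higher in TRAP than in whole lung and all 11 mesenchymal markers tested were lower. Sums of FPKM ran from 659798 to 1631259 per library. The largest were in wild-type replicate 1 and E17 TRAP, in which a single short record, Mir762, held 50.05% and 34.0% of the sum. In bulk RNA, fewer cells of a type cannot be told apart from less RNA per cell, and this holds for every comparison here.

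Several of these genes span microRNAs. By position, without regard to strand, the RefSeq table (GRCm38.p6) placed 49 mature microRNAs inside 8 of the 37 genes, of which 19 lay in Mirg and 13 in Rtl1. Inside Rtl1 the arms of miR-3071 lay on the minus strand and all the others on the plus strand, so they cannot all belong to the Rtl1 transcript. The values below are of the long transcripts and not of the mature microRNAs. The sequences of the hosts with the largest differences between mutant and wild type, H19, Igf2 and Mest, are shown 5′ to 3′ with the seed (bases 2 to 8) in capitals. None of these 6 shared a seed with another microRNA of the set.
H19, miR-675-5p: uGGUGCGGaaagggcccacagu
H19, miR-675-3p: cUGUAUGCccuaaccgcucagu
Igf2, miR-483-5p: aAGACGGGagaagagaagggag
Igf2, miR-483-3p: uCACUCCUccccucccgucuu
Mest, miR-335-5p: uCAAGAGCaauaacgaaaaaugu
Mest, miR-335-3p: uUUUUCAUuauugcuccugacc

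The imprinted genes ranged from 0, at which Rtl1 was listed in E14 TRAP, to 1928 FPKM, the level of H19 in E17 whole lung. Of the 37, 21 reached 10 FPKM in at least 1 library, 12 lay between 1 and 10 FPKM at their highest, and Rtl1, Usp29, Magel2 and Kcnq1ot1 stayed under 1 FPKM in every library. Gnas, which encodes the stimulatory G protein alpha subunit, was the highest of them in each of the 6 TRAP libraries (1428 to 1707 FPKM), and H19 was the highest in both whole lung libraries (1357 and 1928 FPKM). The plot of all genes by library shows the range within each cluster.

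**Figure D1:**
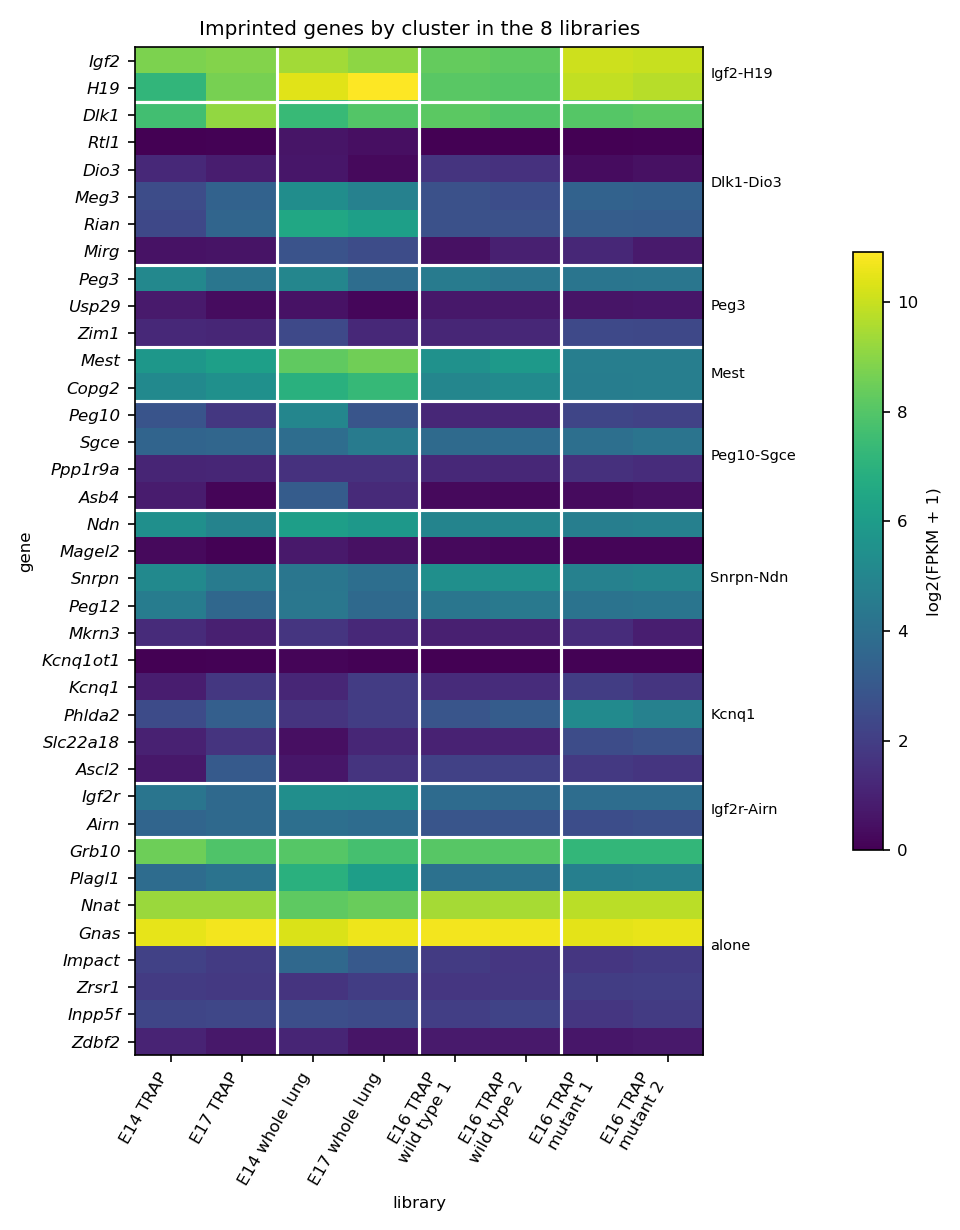
Level of each of the 37 imprinted genes (rows, grouped by cluster) in the 8 libraries (columns) as log2(FPKM + 1), with brighter colours for higher levels. H19, Rian, Mest and Plagl1 are brighter in the 2 whole lung columns than in the 6 TRAP columns, and Igf2 and Phlda2 are brighter in the 2 mutant columns than in the 2 wild-type columns.

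The E16 comparison asks how the Sox9 mutation altered the transcripts on ribosomes of the labelled cells. Igf2 and H19 rose more than 3-fold together, the growth-restraining Phlda2 of the neighbouring domain rose more than 4-fold, and Mest, Grb10, Snrpn and Dio3 fell. Of the 30 genes that averaged at least 1 FPKM in these 4 libraries, 11 were higher in the mutant, where 17.4% of all 11872 records tested were higher, and 8 were lower, where 14.3% were lower. The other 11 did not pass and 7 were too low to test. The median log2 difference of the 30 was 0.16, against 0.01 over all records. Tests were limma on log2(FPKM + 1) with Benjamini-Hochberg adjusted p under 0.05 over all records, and log2 differences on that scale understate the change of low genes.

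In the Igf2-H19 cluster, Igf2, the fetal growth factor read from the paternal copy, stood at 321 and 291 FPKM in wild-type libraries, against 1087 and 1010.2 FPKM in mutant libraries. The mutant mean was 3.43 times the wild-type mean (log2 difference 1.77 ± 0.0692 SE, limma adjusted p = 7.05e-05). H19, the noncoding RNA read from the maternal copy and host of miR-675, stood at 281 and 264 FPKM in wild-type libraries, against 948 and 864 FPKM in mutant libraries (3.32 times the wild type, log2 difference 1.73 ± 0.0650, limma adjusted p = 6.57e-05). The groups did not overlap for either gene, which adds no support to a test on the same values. The ratio of H19 to Igf2 in FPKM was 0.874 and 0.909 in the wild-type libraries and 0.873 and 0.856 in the mutant ones, so the ratio moved little while both levels rose. The Igf2 record overlaps 1343 bases of Igf2os, and the sources used here do not say whether counting was by strand. Beside these rises, the summed level of 9 hepatocyte markers was 5.90 and 5.91 FPKM in wild-type libraries, against 99.9 and 126 FPKM in mutant libraries. Alb was at 37.9 and 54.2 FPKM but Ttr at 0 and 0.125 FPKM in the mutant libraries. Only 5 of the 9 were tested: 4 were higher in the mutant, where 17.4% of all records were, and 1 was lower, where 14.3% were. Of 8 cardiac muscle markers, 1 of the 3 tested was higher: Myh7, a myosin heavy chain, stood at 1.33 and 1.24 FPKM in wild-type libraries, against 34.96 and 27.1 FPKM in mutant libraries, while Actc1 (log2 difference -0.39, limma adjusted p = 0.158) and Myl7 (0.09, limma adjusted p = 0.434) did not pass. The part of other cells in the result was not tested.

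The Kcnq1 cluster lies beyond Igf2 on distal chromosome 7. Phlda2, a pleckstrin homology protein that restrains placental growth, stood at 6.25 and 8.0 FPKM in wild-type libraries, against 36.5 and 26.5 FPKM in mutant libraries (4.42 times the wild type, log2 difference 1.99 ± 0.171, limma adjusted p = 0.000757). Slc22a18, a transporter of the organic cation family beside it, went from 1.05 and 1.08 FPKM to 4.77 and 5.47 FPKM (log2 difference 1.57, limma adjusted p = 0.000274). For both, the mutant values, which the test used, lay above the wild-type ones. Kcnq1, the potassium channel whose record holds that of Kcnq1ot1, the noncoding RNA that silences this domain on the paternal copy, stood at 1.51 and 1.62 FPKM in wild-type libraries, against 2.90 and 2.204 FPKM in mutant libraries (log2 difference 0.46, limma adjusted p = 0.0397). Kcnq1ot1 was at 0.0296 to 0.0392 FPKM in these libraries and was not tested, and reads of the pair cannot be told apart without strand. Ascl2, a bHLH transcription factor of the trophoblast, was lower in the mutant, at 2.52 and 2.18 FPKM against 3.27 and 3.34 FPKM (log2 difference -0.36, limma adjusted p = 0.0364).

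Cdkn1c, the cyclin-dependent kinase inhibitor p57 of the same domain and not among the 37, rose as well, from 406 and 372 FPKM to 1322 and 1142 FPKM (log2 difference 1.66, limma adjusted p = 0.000159). Outside imprinted genes, neighbours within 500 kb of the Igf2-H19 cluster showed 1 higher (Tnni2, a fast muscle troponin, log2 difference 2.31) and 2 lower of 6 tested. Those of the Kcnq1 cluster showed 0 higher by limma and 2 lower of 4 tested. The windows overlap, and the lower neighbours, Mrpl23 (log2 difference -0.41) and R74862 (-0.42), were the same genes in both. Over the neighbours of all clusters and lone genes, 8 of 83 were higher and 14 lower (26.5% called), beside 31.6% of all records. The differences along the chromosome are shown in the plot of distal chromosome 7.

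**Figure D2:**
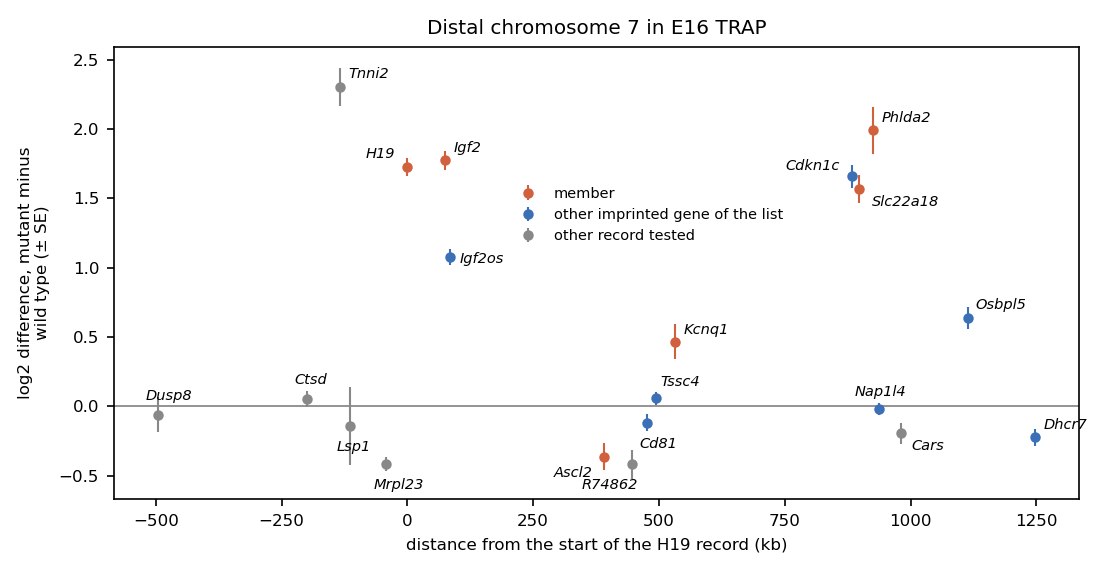
Log2 difference of E16 mutant minus wild type TRAP on the log2(FPKM + 1) scale (y, points with SE from limma, 2 libraries a group) against distance from the start of the H19 record in kb (x) for every record tested on distal chromosome 7. H19 and Igf2 at the left and Cdkn1c, Slc22a18 and Phlda2 at the right lie above 1.5, and Tnni2 lies at 2.31.

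In the Dlk1-Dio3 cluster of chromosome 12, the protein-coding genes read from the paternal copy and the noncoding RNAs read from the maternal copy did not move together. Dlk1, a transmembrane protein related to Notch ligands, stood at 284 and 247 FPKM in wild-type libraries, against 259.6 and 283 FPKM in mutant libraries (log2 difference 0.03, adjusted p = 0.78), and the groups overlapped. Meg3, a noncoding RNA, rose from 5.51 and 4.99 FPKM to 9.77 and 9.05 FPKM (log2 difference 0.74 ± 0.0810, limma adjusted p = 0.00172). Rian, which hosts small nucleolar RNAs and microRNAs, rose from 5.59 and 5.44 FPKM to 8.198 and 8.07 FPKM (log2 difference 0.49, limma adjusted p = 0.00425). Dio3, the deiodinase that inactivates thyroid hormone, fell from 2.11 and 1.94 FPKM to 0.281 and 0.411 FPKM, and the wild-type mean was 5.85 times the mutant mean (log2 difference -1.17 ± 0.118, limma adjusted p = 0.00131). Mirg, a microRNA host at 0.388 and 0.955 FPKM in wild-type libraries, against 1.34 and 0.737 FPKM in mutant libraries, and Rtl1, a retrotransposon-derived gene under 0.05 FPKM in all 4 libraries, were not tested.

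In the Mest cluster both genes fell. Mest, an enzyme of the alpha/beta hydrolase fold read from the paternal copy and host of miR-335, stood at 45.4 and 57.0 FPKM in wild-type libraries, against 24.1 and 24.4 FPKM in mutant libraries (the wild-type mean was 2.11 times the mutant mean, log2 difference -1.04 ± 0.106, limma adjusted p = 0.00139). Copg2, a coatomer subunit of Golgi transport vesicles, fell from 30.8 and 35.9 FPKM to 23.8 and 24.5 FPKM (log2 difference -0.44, limma adjusted p = 0.0109). The records overlap by 913 bases on opposite strands at their ends, and reads there cannot be assigned. The ratio of Copg2 to Mest was 0.677 and 0.629 in the wild type and 0.987 and 1.01 in the mutant.

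In the Snrpn-Ndn cluster, Snrpn, a spliceosomal protein gene whose record also holds Snurf, fell from 42.3 FPKM in both wild-type libraries to 26.8 and 29.6 FPKM (log2 difference -0.57, limma adjusted p = 0.00179). Ndn, the MAGE family protein necdin, was at 29.4 FPKM in both wild-type libraries and at 24.8 and 25.9 FPKM in the mutant (log2 difference -0.21, limma adjusted p = 0.0325). Peg12, a FRAT family gene, stood at 18.3 and 20.1 FPKM in wild-type libraries, against 16.96 and 17.7 FPKM in mutant libraries and did not pass (adjusted p = 0.172). Mkrn3, a RING finger gene, did not pass, with 0.897 to 1.58 FPKM, and Magel2 was under the filter.

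The Peg10-Sgce cluster split. Peg10, a retrotransposon-derived gene needed in the placenta, rose from 1.29 and 1.25 FPKM to 3.81 and 3.48 FPKM (log2 difference 1.03 ± 0.0956, limma adjusted p = 0.000998). Its head-to-head neighbour Sgce, epsilon-sarcoglycan, stood at 12.7 and 13.2 FPKM against 14.8 and 17.2 FPKM in the mutant and missed the threshold (log2 difference 0.28, adjusted p = 0.0533). Ppp1r9a, a neuronal phosphatase regulator at 1.35 to 1.82 FPKM, did not pass, and Asb4, an ankyrin repeat gene, was under the filter. The Peg3 cluster split too: Zim1, a zinc finger gene read from the maternal copy, rose from 1.28 and 1.35 FPKM to 4.38 and 4.09 FPKM (log2 difference 1.18 ± 0.0920, limma adjusted p = 0.000563). Peg3, the zinc finger gene read from the paternal copy beside it, stood at 22.0 and 18.5 FPKM in wild-type libraries, against 18.0 and 18.6 FPKM in mutant libraries, with overlapping groups (log2 difference -0.14, adjusted p = 0.288).

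The Igf2r-Airn pair did not pass. Igf2r, the receptor that carries Igf2 to lysosomes, stood at 13.3 and 12.3 FPKM in wild-type libraries, against 14.1 and 13.9 FPKM in mutant libraries (adjusted p = 0.192). The ratio of Igf2 to Igf2r thus went from 24.2 and 23.6 in the wild type to 76.8 and 72.6 in the mutant. Airn, the noncoding RNA that silences Igf2r on the paternal copy, had 6.27 and 6.22 FPKM against 4.90 and 5.29 FPKM (log2 difference -0.25, adjusted p = 0.0536). The records overlap by 28396 bases.

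Among the genes taken alone, Grb10, an adaptor that dampens signalling of the insulin and IGF1 receptors, fell from 266 and 259.8 FPKM to 147 and 151 FPKM (the wild-type mean was 1.76 times the mutant mean, log2 difference -0.81 ± 0.0451, limma adjusted p = 0.000179). Plagl1, a zinc finger transcription factor, rose from 15.9 and 16.6 FPKM to 24.9 and 26.7 FPKM (log2 difference 0.64, limma adjusted p = 0.00119). Nnat, a membrane proteolipid of the endoplasmic reticulum, went from 704 and 716 FPKM to 884 and 869 FPKM (log2 difference 0.30, limma adjusted p = 0.00651). Gnas was at 1707 and 1641 FPKM in wild-type libraries, against 1428 and 1496 FPKM in mutant libraries (log2 difference -0.19, limma adjusted p = 0.0490). Impact, Zrsr1 and Inpp5f, at 2.27 to 3.54 FPKM, did not pass, and Zdbf2 was under the filter.

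**Figure D3:**
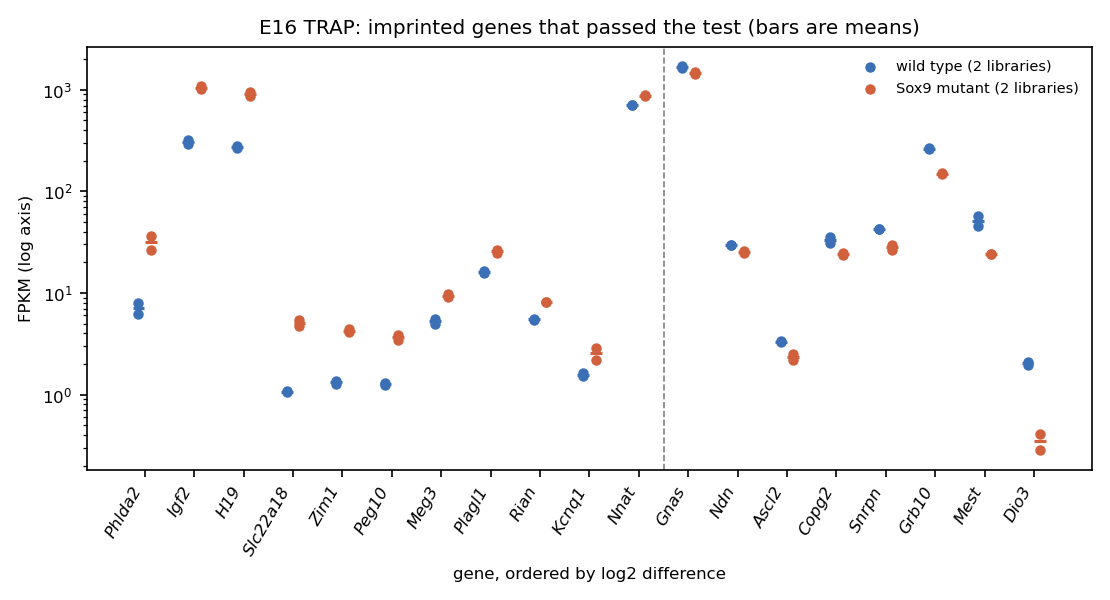
FPKM on a log axis of the 19 imprinted genes that passed the test between E16 mutant and wild-type TRAP, with 1 point per library and a bar at the mean of the 2 libraries of a group, ordered by log2 difference. The 11 genes left of the dashed line were higher in the mutant and the 8 to its right were lower. The 19 were selected by a test on these same values, so the separation of their points adds no support.

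By usual parental copy, 7 of the 12 maternally read genes tested were higher in the mutant, where 17.4% of all records were. Another 3 were lower, where 14.3% of all records were. Of the 17 paternally read genes tested, 4 were higher and 4 were lower, beside those same percentages. The difference between the maternally and paternally read genes was not tested. Mesenchymal markers summed to 111 and 147 FPKM in wild-type libraries, against 74.2 and 139 FPKM in mutant libraries, and 1 of 12 passed as higher and 1 as lower. With each library rescaled to a common total of FPKM, which counts Mir762, the median of all records moved to 0.41 and 2 of the 11 higher calls (Phlda2 and Slc22a18) and 0 of the 8 lower calls by limma were left, with Igf2 at a log2 difference of 2.23 (adjusted p = 0.0824) and Grb10 at -0.36 (adjusted p = 0.858). Under that scaling Ndn and Gnas turned to higher values (0.24 and 0.27), and Ndn, Kcnq1, Ascl2 and Gnas each lost the call without at least 1 of the 4 libraries. With records under 200 bases left out before rescaling, the median of all records was 0.07 and the 11 higher calls were all kept. There Sgce gained a call (log2 difference 0.35, limma adjusted p = 0.0157), and Ndn, Ascl2 and Gnas lost theirs.

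Methylation at imprinting control regions is kept by the zinc finger protein ZFP57, which binds the methylated hexamer TGCCGC. In a list of 21 imprint maintenance and DNA methylation factors, 3 of 18 tested were higher in the mutant, where 17.4% of all records were, and 1 was lower, where 14.3% were. Zfp57 rose from 7.84 and 7.59 FPKM to 16.8 and 14.1 FPKM (log2 difference 0.91, limma adjusted p = 0.00129). The DNA methyltransferase gene Dnmt3a rose by 0.25 and the demethylase gene Tet3 by 0.27 on the log2 scale, and Uhrf1, which guides maintenance methylation, fell by 0.29.

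The hexamer was looked up, on both strands, in the 250 bases before each RefSeq transcript start (GRCm38.p6). Of the 37 genes, 31 had an entry, and 6 of these 31 (19.4%) held it in at least 1 window, against 9.84% of 27025 genes. In windows with at least 8 CpG the shares were 7 of 32 (21.9%) and 17.2%. Here windows and not genes were counted, and overlapping Mest windows, starting at 30737800 and 30737803, both entered the 7. A match describes letters and not a bound site, and no methylation was measured here. The windows of the 4 genes with the largest mutant differences among those that held the hexamer are shown on the strand of the gene, with the hexamer or its reverse complement in capitals. Zim1 (chr7:6696433-6696682, minus strand), Meg3 (chr12:109540746-109540995, plus strand) and Plagl1 (chr10:13090582-13090831, plus strand) were higher in the mutant, and Mest (chr6:30737800-30738049, plus strand, before an internal start of the Mest record) was lower.
Zim1: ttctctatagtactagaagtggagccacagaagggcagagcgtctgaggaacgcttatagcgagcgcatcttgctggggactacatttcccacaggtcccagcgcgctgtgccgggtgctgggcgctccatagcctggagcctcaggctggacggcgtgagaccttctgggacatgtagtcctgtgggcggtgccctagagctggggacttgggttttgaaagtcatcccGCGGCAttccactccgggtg
Meg3: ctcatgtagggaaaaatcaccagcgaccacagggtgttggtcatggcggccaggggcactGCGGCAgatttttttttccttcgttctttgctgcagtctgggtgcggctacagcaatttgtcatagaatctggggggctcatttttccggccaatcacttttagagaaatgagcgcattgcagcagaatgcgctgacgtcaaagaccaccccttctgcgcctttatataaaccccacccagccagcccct
Plagl1: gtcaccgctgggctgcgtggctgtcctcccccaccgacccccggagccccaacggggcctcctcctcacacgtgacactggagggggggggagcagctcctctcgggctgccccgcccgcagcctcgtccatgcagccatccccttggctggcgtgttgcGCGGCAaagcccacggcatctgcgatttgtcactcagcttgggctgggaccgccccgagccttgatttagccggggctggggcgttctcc
Mest: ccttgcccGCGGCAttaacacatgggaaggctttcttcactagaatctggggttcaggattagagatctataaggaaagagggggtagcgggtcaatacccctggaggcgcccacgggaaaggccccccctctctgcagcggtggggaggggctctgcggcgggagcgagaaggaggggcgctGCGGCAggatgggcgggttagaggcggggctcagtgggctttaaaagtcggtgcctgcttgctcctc

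TRAP against whole lung asks which of these genes were on the ribosomes of the labelled cells in a different proportion from the lung as a whole. More of the imprinted genes were lower in TRAP than higher: 13 of 31 tested were lower, where 17.1% of all 12320 records were lower, and 5 were higher, where 23.6% of all records were higher. The other 13 did not pass and 6 were too low to test. The median log2 difference of the 31 was -0.40, against 0.05 over all records. By single libraries, Nnat was at least 2-fold higher in TRAP at E14, where 6.11% of records were, and 12 of 30 genes were at least 2-fold lower, where 9.58% were. At E17, Ascl2, Dlk1 and Phlda2 were at least 2-fold higher, where 4.85% of records were, and 10 were lower, where 9.13% were. H19, Meg3, Rian, Mirg, Mest, Copg2, Peg10, Plagl1, Igf2r and Impact were lower by this measure at both stages. With 1 library per stage and fraction, the stages served as replicates, so the limma test measures how far E14 and E17 disagree.

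Of the 5 noncoding members tested, Rian, H19, Mirg and Meg3 were lower in TRAP, where 17.1% of all records were lower. Rian stood at 4.09 FPKM in TRAP and 90.3 FPKM in whole lung at E14, and at 10.7 and 70.5 FPKM at E17, so that whole lung was 22.1 and 6.59 times TRAP (log2 difference -3.39 ± 0.348, limma adjusted p = 0.00207). H19 stood at 143 FPKM in TRAP and 1357 FPKM in whole lung at E14, and at 413 and 1928 FPKM at E17 (log2 difference -2.73 ± 0.239, limma adjusted p = 0.00140). Meg3 had 4.81 against 40.2 FPKM at E14 and 9.81 against 27.0 FPKM at E17 (log2 difference -2.10, limma adjusted p = 0.00677), and Mirg had 0.426 against 5.90 and 0.471 against 4.74 FPKM (log2 difference -2.12, limma adjusted p = 0.00156). In each of these 4 RNAs, TRAP was under whole lung at both stages. Airn did not pass, at 10.8 against 15.0 and 12.4 against 13.5 FPKM (adjusted p = 0.160), and Kcnq1ot1 was under the filter. In a list of noncoding RNAs outside imprinted clusters, 6 of 8 tested were lower and none was higher by limma (0 higher, median log2 difference -1.26), among them the nuclear RNA Malat1 at -1.83.

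Of 26 protein-coding members tested, 9 were lower in TRAP, where 17.1% of all records were. Another 5 were higher, where 23.6% of all records were, and the median of the 26 was -0.28. Mest stood at 54.6 FPKM in TRAP and 299 FPKM in whole lung at E14 and at 70.7 and 369.7 FPKM at E17 (log2 difference -2.40 ± 0.0903, limma adjusted p = 0.000331). Its neighbour Copg2 had 35.5 against 121 and 43.9 against 156 FPKM (log2 difference -1.77, limma adjusted p = 0.000526). Plagl1 had 13.4 against 119 and 17.02 against 68.7 FPKM (log2 difference -2.51, limma adjusted p = 0.00207).

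Igf2r was lower at both stages, at 18.1 against 40.7 and 12.4 against 40.3 FPKM (log2 difference -1.37, limma adjusted p = 0.00231). Its ligand gene Igf2 had 427 against 682 FPKM at E14 and 472 against 528 FPKM at E17 and did not pass (log2 difference -0.42, adjusted p = 0.0686). The ratio of H19 to Igf2 was 0.334 in TRAP and 1.99 in whole lung at E14, and 0.875 and 3.65 at E17. Within the Peg10-Sgce cluster, Peg10 had 6.04 against 31.0 and 2.41 against 6.46 FPKM (log2 difference -1.66), Asb4 had 0.794 against 8.16 and 0.108 against 1.46 FPKM (log2 difference -1.75) and Sgce had 10.6 against 13.95 and 11.3 against 22.4 FPKM (log2 difference -0.65), and all 3 were lower by limma (adjusted p 0.00680, 0.0103 and 0.0283). Ndn, at 42.0 against 68.8 and 28.2 against 56.2 FPKM, and Impact, a regulator of translation at 3.28 against 11.7 and 2.67 against 7.21 FPKM, were lower too (limma adjusted p = 0.00413 and 0.00342).

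The 5 genes higher in TRAP were Phlda2, Snrpn and Dlk1, each of a different cluster, and Nnat and Grb10, which were taken alone. Nnat stood at 621 FPKM in TRAP and 292 FPKM in whole lung at E14 and at 619.9 and 342 FPKM at E17 (log2 difference 0.97 ± 0.106, limma adjusted p = 0.00243). Phlda2 had 4.70 against 2.08 and 8.99 against 2.94 FPKM (log2 difference 1.11 ± 0.183, limma adjusted p = 0.00759). Snrpn had 35.1 against 18.7 and 22.3 against 14.6 FPKM (log2 difference 0.73, limma adjusted p = 0.00804).

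Dlk1 had 193 against 161 FPKM at E14 and 560.2 against 255 FPKM at E17 (log2 difference 0.70, limma adjusted p = 0.0446), and Grb10 had 365 against 259.7 and 242 against 205 FPKM (log2 difference 0.36, limma adjusted p = 0.0426). Both lost the call with a pseudocount of 0.1 (adjusted p = 0.0603 and 0.0503), and with a common total Grb10 turned to -0.03 and Dlk1, Snrpn and Nnat did not pass. Gnas, at 1462 against 1246 and 1671 against 1599 FPKM, Peg3, at 32.9 against 31.4 and 18.6 against 14.1 FPKM, and Peg12, at 23.0 against 19.3 and 11.5 against 12.2 FPKM, did not pass. Zim1, Ppp1r9a, Mkrn3, Kcnq1, Slc22a18, Ascl2, Zrsr1 and Inpp5f did not pass either, with log2 differences from -0.62 (Zim1) to 0.74 (Ascl2).

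**Figure D4:**
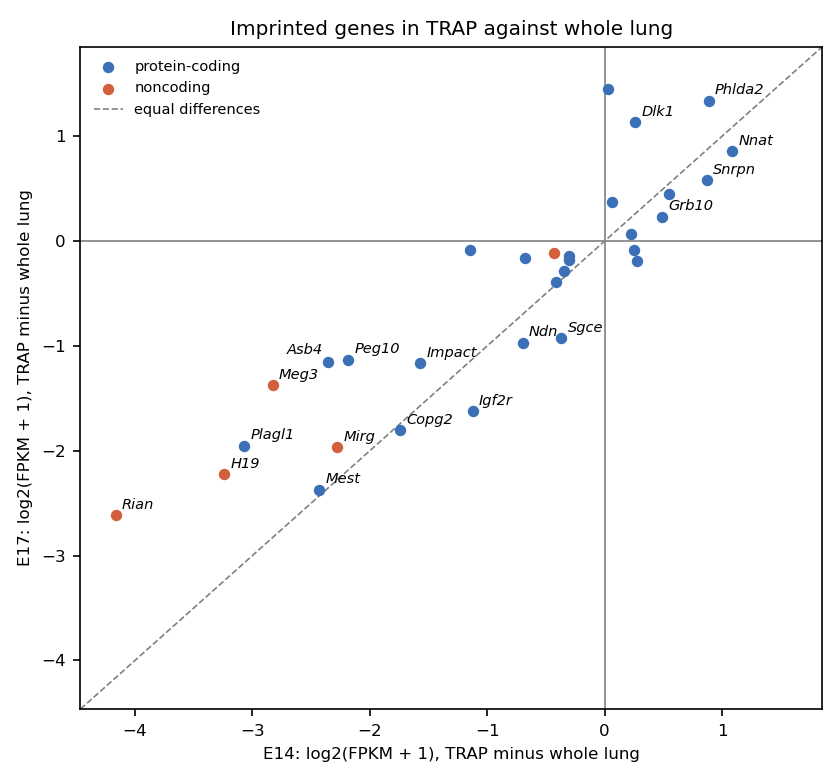
Difference of TRAP minus whole lung in log2(FPKM + 1) at E14 (x) and at E17 (y) for the 31 imprinted genes tested, 1 point per gene and 1 library per fraction and stage, with names on the 18 that passed. Rian, H19, Plagl1 and Mest lie at the lower left, below -1.9 at both stages, and Phlda2 and Nnat lie at the upper right.

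Mesenchymal markers summed to 87.6 FPKM in TRAP and 1088 FPKM in whole lung at E14 and to 74.8 and 1257 FPKM at E17, so whole lung held 11 of 11 tested mesenchymal markers at higher levels, and 8 of 8 endothelial markers likewise. The part of these cells in the lower TRAP values was not tested. In the mutant comparison, which is of TRAP with TRAP, 5 of the 11 genes that rose (H19, Meg3, Rian, Peg10 and Plagl1) were also among the 13 lower in TRAP than in whole lung, and 2 (Phlda2 and Nnat) were among the 5 higher. Of the 8 that fell, 3 (Mest, Copg2 and Ndn) were lower in TRAP than in whole lung and 2 (Snrpn and Grb10) were higher. These comparisons share no library. Of all 31 genes tested in TRAP against whole lung, 13 were lower and 5 were higher. The same overlap over all records was not counted, and no link between the comparisons is drawn from these counts.

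From E14 to E17, 25.8% of the genes tested passed a limma test across both fractions, beside 15.9% of all records. Of 31 tested, 4 were higher at E17, where 9.51% of all records were higher, and 4 were lower, where 6.36% were lower, and 23 did not pass. TRAP and whole lung served as the replicates of this contrast, in the same fit of 4 libraries. Ascl2 rose from 0.610 to 7.56 FPKM in TRAP and from 0.582 to 2.13 FPKM in whole lung (log2 difference 1.70 ± 0.357, limma adjusted p = 0.0366). Dlk1 rose from 193 to 560.2 FPKM and from 161 to 255 FPKM (log2 difference 1.09, limma adjusted p = 0.0299), and Kcnq1 from 0.809 to 2.46 FPKM and from 1.24 to 2.82 FPKM (log2 difference 0.85, limma adjusted p = 0.0420). H19 rose from 143 to 413 FPKM in TRAP and from 1357 to 1928 FPKM in whole lung (log2 difference 1.02, limma adjusted p = 0.0460), a call lost with a pseudocount of 0.1 (adjusted p = 0.0628).

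Of the 4 lower genes, Peg10, Peg3 and Peg12 are read from the paternal copy and Grb10 mainly from the maternal copy. Peg10 fell from 6.04 to 2.41 FPKM in TRAP and from 31.0 to 6.46 FPKM in whole lung (log2 difference -1.57 ± 0.261, limma adjusted p = 0.0236). Peg3 fell from 32.9 to 18.6 and from 31.4 to 14.1 FPKM (log2 difference -0.95 ± 0.124, limma adjusted p = 0.0142), and Peg12 from 23.0 to 11.5 and from 19.3 to 12.2 FPKM (log2 difference -0.78, limma adjusted p = 0.0244). Grb10 fell from 365 to 242 and from 259.7 to 205 FPKM (log2 difference -0.47, limma adjusted p = 0.0426), a call lost with a pseudocount of 0.1 (adjusted p = 0.0534). With a common total, Dlk1, Kcnq1, H19 and Grb10 did not pass. In the list of imprint maintenance factors, 0 of 18 rose by limma and 5 fell, among them Trim28, the corepressor that ZFP57 recruits, at a log2 difference of -0.62, Uhrf1 at -0.57 and Dnmt3a at -0.62.

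Some genes moved in opposite directions in the 2 fractions, as the plot of stage changes shows. Meg3 went from 4.81 to 9.81 FPKM in TRAP and from 40.2 to 27.0 FPKM in whole lung, Rian from 4.09 to 10.7 and from 90.3 to 70.5 FPKM, and Plagl1 from 13.4 to 17.02 and from 119 to 68.7 FPKM. Igf2 went from 427 to 472 FPKM in TRAP and from 682 to 528 FPKM in whole lung. These are single libraries, with no test within a fraction. A limma test of the difference between the stage changes, with its spread from the E16 replicates, passed for 5 of 31 genes, where 1.36% of all records passed, and all 5 were more positive in TRAP, as 0.511% of all records were. By count, 4 of 30 genes were at least 2-fold higher in FPKM + 1 at E17 in TRAP (Ascl2, Dlk1, H19 and Rian), where 4.75% of records were, and Peg10 was at least 2-fold lower, where 1.91% were. In whole lung 0 genes were at least 2-fold higher, where 4.83% of records were, and 4 were lower (Asb4, Peg10, Peg3 and Zim1), where 1.30% were.

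**Figure D5:**
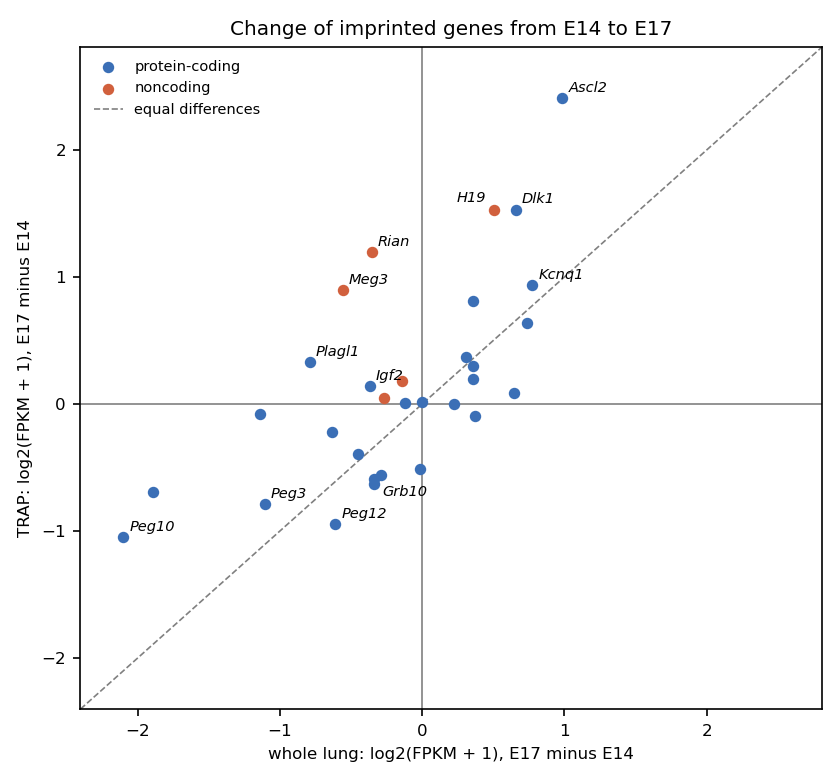
Change from E14 to E17 in log2(FPKM + 1) in whole lung (x) and in TRAP (y) for the 31 imprinted genes tested, 1 library per point of each stage and fraction, with the dashed line at equal change. Rian, Meg3, Plagl1 and Igf2 lie at the upper left (higher in TRAP and lower in whole lung at E17), and Peg10 and Peg3 lie at the lower left.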

How the data were processed

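TRAP and whole lung RNA of 8 libraries were analysed. The FPKM values and their confidence bounds were deposited by the authors as 1 table per library, per the file headers. The submitters' processing notes name TopHat2 2.0.14, Bowtie2 2.2.3, Cufflinks 2.2.1, Cuffnorm and the build mm10. The sources used here do not state strand handling. Deposited starts count from 0, so 1 was added to print them.

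For each of the 37 symbols the row of highest mean FPKM was taken. Tests used limma 3.58.1 (R 4.3.3), eBayes with trend, on log2(FPKM + 1), two-sided, over all records averaging at least 1 FPKM in the libraries of the fit, with Benjamini-Hochberg adjustment at 0.05. The mutant fit had the 4 E16 libraries (2 residual degrees of freedom, 3.73 prior). TRAP against whole lung and E17 against E14 came from 1 additive fit of the 4 E14 and E17 libraries (1 residual degree of freedom, 4.47 prior). Comparisons of single libraries carry no test. The fit of the difference between stage changes used all 8 libraries and was added after the data had been seen. The main fits for mutant, TRAP and stage were also run on simulated data. The fit of the difference between stage changes and the alternatives were not.

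Fragment numbers were inferred by squaring the ratio of a value to its standard error, the bound being taken as 2 standard errors away. Of 12165 records, 9014 had bounds that moved by 1 common factor within 0.1 log2, 17 of the 37 genes among them, and limma-voom was run on these as an alternative. Depth limits the genes under 1 FPKM most, and the bounds cover counting error only. Replicates were no repeat deposits: in units of that error their mean squared difference was 5.37 in the wild type and 6.91 in the mutant, and 69.1 across genotypes for replicate 1.

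Values in every library are given for genes that reached 10 FPKM in a library or passed a test, and the others by their range. Of the other lists, up to 4 genes with the smallest p are named. Cdkn1c, Tnni2, Mrpl23, R74862, Alb, Ttr and Myh7 were named after their values were seen. The members and lists were chosen with earlier results of these data known. Sequences are from RefSeq tables on GRCm38.p6, in which 31 of the 37 genes had a promoter entry. Alternatives covered the pseudocount, the filter, the scaling, the sum of rows, voom, a replicate block and leaving out each E16 library.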

Additional observations from a re-analysis of the deposited data

Results flagged for a closer look

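For 5 of 31 imprinted genes the change from E14 to E17 differed between TRAP and whole lung, by a limma test of the difference itself, where 1.36% of all 12320 records passed the same test. The test uses all 8 libraries and takes its spread from the E16 replicates, so the lone E14 and E17 libraries are assumed to vary like those, and it was chosen after the data had been seen. All 5 differences were positive, which 0.511% of all records showed: the change was more positive in TRAP. They were 1.55 ± 0.116 for Rian (adjusted p = 0.0132), 1.45 ± 0.154 for Meg3 (adjusted p = 0.0279), 1.43 ± 0.182 for Ascl2 (adjusted p = 0.0433), 1.12 ± 0.118 for Plagl1 (adjusted p = 0.0279) and 1.02 ± 0.131 for H19 (adjusted p = 0.0452), as log2 differences of log2(FPKM + 1). Rian, Meg3 and Plagl1 moved in opposite directions in the 2 fractions, whereas Ascl2 and H19 rose in both. With a pseudocount of 0.1, H19 (1.03, adjusted p = 0.0588) and Ascl2 (1.72, adjusted p = 0.0747) did not pass. Over the same interval the summed mesenchymal markers went from 87.6 to 74.8 FPKM in TRAP and from 1088 to 1257 FPKM in whole lung, and their part in the result was not tested.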

How the results depend on the processing

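Under the alternatives, 718 values of single genes kept direction and call, 90 lost the call, 39 gained one and 33 changed sign. In the mutant comparison, genes higher and lower numbered 7 and 2 with no filter on low values and 2 and 0 with a common total (limma, 6 and 1 at an unadjusted p under 0.05). The lower count was 5 with records under 200 bases left out before rescaling, where no higher call was lost, and 2 by limma-voom on 16 genes. Leaving out each E16 library gave 10 to 11 higher and 4 to 6 lower genes: without wild-type replicate 1 or 2 the lower count was 4, since Ndn, Ascl2 and Gnas lost the call and Dio3 fell under the filter. The replicate numbers did not pair the libraries (r = 0.00721 between deviations of same-numbered libraries over 11872 records), and the replicate block gave 5 lower genes. In TRAP against whole lung the higher count was 3 with a pseudocount of 0.1, 3 with a filter of 5 FPKM, 1 with a common total and 1 by limma-voom, which gave 8 lower genes. With no filter limma called 0 genes higher and 0 lower (6 and 11 at an unadjusted p under 0.05, and 1 and 8 by limma-voom). From E14 to E17 the no-filter counts were 0 and 0 (4 and 6 at an unadjusted p under 0.05). The higher count was 1 with a filter of 5 FPKM, 1 with a common total and 2 by limma-voom. The lower count was 7 with short records left out. All 8 libraries in 1 fit gave 11 higher and 11 lower. In single libraries, E14 TRAP held 2 genes above whole lung with a pseudocount of 0.1 and 0 with short records left out. In TRAP, 7 genes were higher at E17 with a pseudocount of 0.1, and 2 were lower under either alternative. In whole lung, 2 and 1 were higher under these alternatives. The difference between stage changes passed for 3 genes with a pseudocount of 0.1 and for 9 with short records left out.

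The signs that changed were those of small differences. In the mutant, a common total gave Peg3 0.30, Ndn 0.24, Peg12 0.29, Airn 0.13, Gnas 0.27, Impact 0.29 and Inpp5f 0.013. Short records left out gave Impact 0.022, centring gave Dlk1 -0.014, and leaving out a library gave Impact -0.11 to 0.049. Dlk1 turned to -0.066 without wild-type replicate 2 and to -0.027 without mutant replicate 2 only. In TRAP against whole lung, a common total gave Peg3 -0.15, Peg12 -0.29, Grb10 -0.026, Gnas -0.24 and Zrsr1 -0.25, short records left out gave Peg12 -0.0091 and Zrsr1 -0.026, and voom gave Peg12 -0.041 and Zrsr1 -0.081. Between stages, a common total gave Meg3 -0.076, Ppp1r9a -0.16, Airn -0.24, Nnat -0.17, Gnas -0.0015 and Zrsr1 -0.052, short records left out gave Ppp1r9a -0.046 and Airn -0.050, centring gave Ppp1r9a -0.025 and Airn -0.011, and voom gave Ppp1r9a -0.0039. The all-record median became 0.41, -0.30 and -0.24 in the 3 comparisons with a common total. Over all records, calls numbered 3755, 5015 and 1955. With no filter they were 1187, 0 and 0, and with a common total 225, 3406 and 1120. Without wild-type replicate 1 and 2 the mutant calls were 2208 and 1888, limma-voom gave 3098 for TRAP, and all 8 libraries gave 8379 and 6117 for TRAP and stage. The share of higher calls in the mutant was 54.9%, 42.8% when centred, 68.3% with short records left out and 74.2% with a common total. For TRAP it was 58.0%, 16.1% with a common total and 44.8% by voom, and for stage 59.9%, 46.0% with a common total and 45.3% with short records left out. The causes of these shifts were not tested.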

Other observations

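Among 45 further imprinted genes found in the tables, 10 of 26 tested were higher in the Sox9 mutant, where 17.4% of all records were, and 3 were lower, where 14.3% were. The paraoxonase genes Pon2 and Pon3, which lie near the Peg10-Sgce cluster, were at 16.98 and 17.6 FPKM and at 1.78 and 1.70 FPKM in the wild type. In the mutant they were at 56.4 and 59.3 FPKM and at 11.6 and 9.11 FPKM (log2 differences 1.69 and 2.04, limma adjusted p = 4.4e-05 and 0.000219). Igf2os, the antisense transcript that overlaps Igf2, was at 11.3 and 11.7 FPKM in wild-type libraries, against 25.7 and 24.9 FPKM in mutant libraries (log2 difference 1.08, limma adjusted p = 0.000164), and its reads cannot be told apart from those of Igf2 without strand. In TRAP against whole lung, 5 of 28 were higher, where 23.6% of all records were, and 8 were lower, where 17.1% were. Decorin (Dcn), a matrix proteoglycan of mesenchyme that is also on the mesenchymal marker list, was lower by limma at a log2 difference of -3.22, Phactr2 was lower at -1.20, and the actin nucleator gene Cobl and Tssc4 were higher at 1.39 and 0.65. From E14 to E17, 4 of 28 were higher (9.51% of all records), among them Pon2 at 1.21, Pon3 at 1.03 and Osbpl5 at 0.75, and 3 were lower (6.36% of all records), among them the amino acid transporter gene Slc38a4 at -0.84.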
